A study of Mus musculus with 81 samples.

Results

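The acute-phase genes Saa1, Saa2, Saa3, Saa4, Orm1, Orm2, Orm3, Lcn2, Hp and Steap4 were followed in the liver, 10 of the 21765 genes in the table. They were taken by gene symbol, with the probe set of the highest mean kept for each symbol. The members were thus chosen by name and by mean level over all arrays, and because each of the 10 had 1 probe set, the level decided nothing. All tests were fitted on the 21765 genes, and only the values of these members and of genes set beside them are given. The diet result of some of the 10 was already known when they were listed, so their diet calls are not independent evidence of a direction.

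The livers came from male mice aged 29 weeks that had been fasted overnight. They were of the inbred BXD lines or of a parental strain, with no engineered allele named. The lines were bred from C57BL/6J and DBA/2J, so that every line is fixed for a mixture of alleles from those parents. The mice ate Harlan 2018 chow, or the high-fat diet Harlan 06414 from week 8 of age. Each of the 81 arrays held a pool made from about 5 animals that shared strain and diet, 41 on chow and 40 on high fat, so the spread between animals was not measured. Of 42 strains, 39 had both diets (37 BXD lines and the 2 parents) and gave 78 paired arrays. BXD60 and BXD92a had chow only and BXD50 had high fat only. Values are array scores, scaled so that the probe sets on an array average 8 with an SD of 2, and a difference of 1 unit is 0.5 of that SD.

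The acute phase is the change in the blood plasma proteins made by the liver after infection, injury or inflammation. Cytokines such as Il6, Il1b and Tnf, released largely by macrophages, act on hepatocytes, where the transcription factors Stat3, C/EBP and NF-kB raise the genes of the positive acute-phase proteins. Serum amyloid A proteins travel on high-density lipoprotein, and orosomucoids carry lipids and drugs in plasma. Lcn2 is a secreted lipocalin that binds the siderophores with which bacteria gather iron. Hp captures free haemoglobin, and Steap4 is a membrane reductase of iron and copper. In obesity, several of these genes are known for a long-lasting, lower-grade rise in liver and fat.

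RefSeq promoter windows (GRCm38.p6) were matched for 8 of the 10 members, and the 250 bases before the transcript start were searched for letters of the factors named above. The windows of Saa1, Saa3 and Orm3 lie in part or wholly inside the span of their gene, because another transcript starts further upstream. Those of Saa2, Orm2, Lcn2 and Steap4 do not, and they are printed 5′ to 3′ because they stand for the serum amyloid, orosomucoid, lipocalin and reductase members whose diet differences were largest among the windows outside a gene span. Capitals mark matches to TTGCNNAA (C/EBP), TTCNNNGAA (STAT) or to GGG and CC with any 5 bases between (NF-kB), on either strand. The Saa2 window is chr7:46751583-46751832 (plus strand), that of Orm2 chr4:63362199-63362448 (plus strand), that of Lcn2 chr2:32387740-32387989 (minus strand) and that of Steap4 chr5:7960222-7960471 (plus strand).
Saa2: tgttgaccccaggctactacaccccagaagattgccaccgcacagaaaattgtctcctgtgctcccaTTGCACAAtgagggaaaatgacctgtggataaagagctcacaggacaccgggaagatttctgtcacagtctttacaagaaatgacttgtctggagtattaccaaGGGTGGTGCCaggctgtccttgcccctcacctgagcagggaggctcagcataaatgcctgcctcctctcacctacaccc
Orm2: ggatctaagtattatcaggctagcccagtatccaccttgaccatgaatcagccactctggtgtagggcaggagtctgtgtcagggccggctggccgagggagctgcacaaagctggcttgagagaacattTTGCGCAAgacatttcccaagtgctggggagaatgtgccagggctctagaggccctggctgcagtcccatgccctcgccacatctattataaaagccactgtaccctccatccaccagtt
Lcn2: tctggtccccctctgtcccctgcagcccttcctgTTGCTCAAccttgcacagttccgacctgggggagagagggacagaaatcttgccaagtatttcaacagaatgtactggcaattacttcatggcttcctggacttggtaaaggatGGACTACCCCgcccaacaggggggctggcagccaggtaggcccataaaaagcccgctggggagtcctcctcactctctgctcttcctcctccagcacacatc
Steap4: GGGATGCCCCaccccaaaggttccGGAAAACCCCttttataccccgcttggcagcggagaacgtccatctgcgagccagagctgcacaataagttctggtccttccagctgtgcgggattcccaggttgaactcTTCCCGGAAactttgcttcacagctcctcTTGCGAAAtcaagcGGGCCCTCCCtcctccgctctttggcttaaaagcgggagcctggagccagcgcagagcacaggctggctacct

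The C/EBP letters TTGCNNAA were found in 8 of the 8 windows, against 9.56% of 32851 RefSeq windows of the same length. The match read TTGCACAA in Saa1, Saa2 and Orm3, TTGCGCAA in Orm2, TTGCTCAA in Lcn2, TTGCGAAA in Steap4 and TTATGCAA in Saa3. Saa4 had a pair of them, TTGCCAAA and TTGAGCAA. In Saa2 the match began 183 bases before the start, and in Orm2 120 bases before it. The NF-kB letters were found in 5 of 8 windows, those of Saa1, Saa2, Saa4, Lcn2 and Steap4, against 45.8% of all windows. The STAT letters were found in 1, Steap4, against 7.02%, and the TATA letters TATAAA, not in capitals, in 3, Orm2, Orm3 and Steap4, against 12.4%. The TATA match of Steap4 was on the other strand, read as TTTATA here, and began 215 bases before the start. Those of Orm2 and Orm3 began 33 and 29 bases before it. No match overlapped another. A match of letters does not show that a factor binds there. Saa1 and Saa2 had windows 94.8% identical and Orm2 and Orm3 windows 85.5% identical. Their C/EBP matches began 182 and 183 bases before the start in Saa1 and Saa2, and 120 and 121 in Orm2 and Orm3. The 8 windows are thus not 8 separate cases in these counts. Transcripts of near-identical family members can share probes, so the values of single Saa and Orm genes are uncertain, Saa1 and Saa2 above all.

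Some arrays stood apart. In the BXD44 pair, Cyp2b9, Cidea and Cd36, which were higher on high fat in 36, 37 and 36 of 39 strains, were lower on the array labelled high fat, by -5.34, -1.69 and -0.64 units. Whether the labels of the BXD44 pair are exchanged cannot be told apart from a true difference of that strain, and every direction given for it rests on the labels. BXD61 had -2.32, -0.05 and -0.67 for the same genes, and BXD63 had -0.95, 0.22 and -0.17. Whether labels were exchanged in the BXD61 or BXD63 pair was not tested, and their directions rest on the labels too. The DBA/2J chow and BXD63 high-fat arrays carried pancreatic acinar transcripts, with 17 and 19 of 22 markers above the other 79 arrays. The diet, strain and spread tests were repeated without these strains. The liver label was borne out by hepatocyte markers: 16 of 16 were measured, and their mean score lay between 14.2 and 14.6 on every array. The median of the negative-control probe sets was 6.69. Saa1 lay below it on 5 of 41 chow arrays and 1 of 40 high-fat arrays, and the other 9 members lay above it on every array.

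On the high-fat diet 9 of the 10 genes were higher (limma, adjusted p under 0.05 over all genes), against 27.7% of all genes; in either direction 53.7% of all genes were called, and 26.1% were lower. Lcn2, Saa2, Orm3, Saa1, Orm2 and Steap4 rose by at least 0.5 units, a size that 0.469% of all genes reached. Orm1 alone did not pass. The median difference of the 10 was 0.70 units, and that of all genes was 0.004. In bulk liver, more RNA per hepatocyte and more cells of another kind cannot be told apart.

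**Figure D1:**
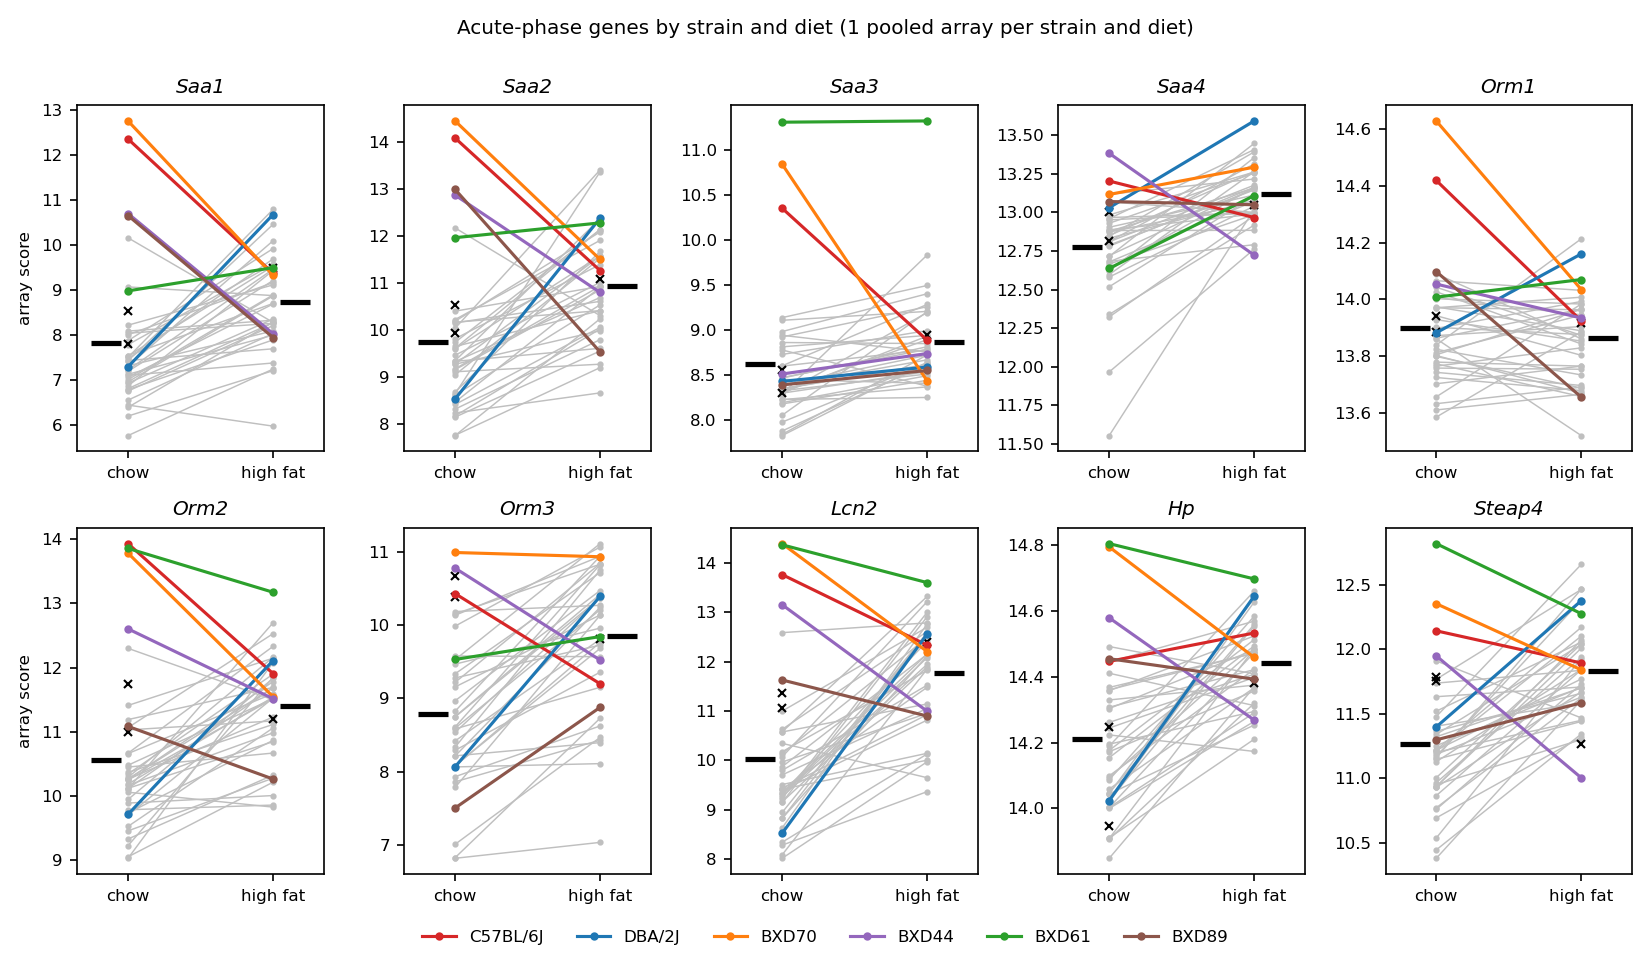
Array score of each of the 10 genes (y axis, each panel with its own scale) on chow and on high fat (x axis), 1 line per strain with both diets (39), with crosses for strains with 1 diet and black bars for the diet means. Most lines rise in every panel but Orm1, while C57BL/6J and BXD70 start high on chow and fall for Saa1, Saa2, Orm2 and Lcn2, and DBA/2J rises.

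Among the serum amyloid genes, Saa2, an acute-phase apolipoprotein made by hepatocytes, ran on chow from 7.75 in BXD95 through a median of 9.35 to 14.5 in BXD70, and on high fat from 8.66 in BXD45 through 10.9 to 13.4 in BXD68. The diets overlapped: 6 of 41 chow arrays lay above the high-fat median and 2 above every high-fat array. It rose from 9.75 ± 1.64 to 10.9 ± 1.12 (SD, n = 39 strains), by 1.19 ± 0.27 units (SE, limma, adjusted p = 0.000212), and was higher in 34 of 39 strains. Saa1, its close neighbour and likewise an acute-phase gene, ran on chow from 5.77 in BXD81 through 7.43 to 12.8 in BXD70, and on high fat from 5.98 in BXD45 through 8.79 to 10.8 in BXD68. The upper end belonged to chow, where C57BL/6J (12.4) and BXD70 exceeded every high-fat array. Saa1 rose by 0.93 ± 0.25 units (SE, limma, adjusted p = 0.0017), higher in 32 of 39 strains. Its strain differences ran from -3.43 in BXD70 through a median of 1.42 to 3.38 in DBA/2J, so the mean lay below what most strains showed.

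Saa4, the constitutive serum amyloid A of the liver, varied far less between strains. It ran from 11.6 in BXD43 through 12.8 to 13.4 in BXD44 on chow, and from 12.7 in BXD44 through 13.1 to 13.6 in DBA/2J on high fat. As labelled, BXD44 was the highest strain on chow and the lowest on high fat. The rise of Saa4 was 0.35 ± 0.05 units (SE, limma, adjusted p = 3.81e-07), with 35 of 39 strains higher. Saa3, which in mice is also made by macrophages and fat cells, ran from 7.82 in BXD95 through 8.39 to 11.3 in BXD61 on chow, and from 8.25 in BXD45 through 8.74 to 11.3 in BXD61 on high fat. BXD61 was the highest strain on both diets, followed by BXD70 at 10.8 and C57BL/6J at 10.35 on chow and, at a wider distance, by BXD69 at 9.83 on high fat. The Saa3 difference was 0.24 ± 0.10 units (SE, limma, adjusted p = 0.0299), with 33 of 39 strains higher. That call was lost without BXD65 (0.0507) or BXD69 (0.0546), and without pairing by strain, where the adjusted p was 0.118 on all arrays.

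Of the orosomucoid genes, Orm3 ran on chow from 6.82 in BXD87 through 8.75 to 10.99 in BXD70, and on high fat from 7.03 in BXD87 through 10.05 to 11.1 in BXD65. BXD87 was the lowest strain on both diets. Orm3 rose from 8.79 ± 1.03 to 9.85 ± 0.965 (SD, n = 39), by 1.06 ± 0.13 units (SE, limma, adjusted p = 9.05e-09), and was higher in 35 of 39 strains. Orm2 ran from 9.03 in BXD51 through 10.3 to 13.9 in C57BL/6J on chow, and from 9.83 in BXD87 through 11.5 to 13.2 in BXD61 on high fat. On chow, C57BL/6J, BXD61 and BXD70 (13.8) lay above every high-fat array. Orm2 rose by 0.84 ± 0.17 units (SE, limma, adjusted p = 8.01e-05), higher in 32 of 39 strains.

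Orm1, which is abundant in mouse liver without inflammation, had a median of 13.9 on both diets. It ran from 13.6 in BXD48 to 14.6 in BXD70 on chow and from 13.5 in BXD80 to 14.2 in BXD65 on high fat. Its difference was -0.04 ± 0.03 units (SE, limma, adjusted p = 0.348), with 15 strains higher and 24 lower. The diets thus did not differ beyond the spread of this difference from strain to strain. Across the alternatives the adjusted p of Orm1 lay between 0.207 and 0.558.

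Lcn2 had the largest difference of the 10. It ran on chow from 8.01 in BXD55 through 9.51 to 14.4 in BXD70, and on high fat from 9.37 in BXD45 through 12.1 to 13.6 in BXD61. On chow, 5 of 41 arrays lay above the high-fat median, and BXD70, BXD61 and C57BL/6J lay above every high-fat array. Only 1 of 40 high-fat arrays lay below the chow median. Lcn2 rose from 10.03 ± 1.63 to 11.8 ± 1.09 (SD, n = 39), by 1.74 ± 0.25 units (SE, limma, adjusted p = 1.43e-07), higher in 33 of 39 strains.

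Steap4 ran from 10.4 in BXD43 through 11.2 to 12.8 in BXD61 on chow, and from 11.004 in BXD44 through 11.8 to 12.7 in BXD65 on high fat. It rose by 0.56 ± 0.08 units (SE, limma, adjusted p = 2.41e-07), higher in 34 of 39 strains. Hp ran from 13.8 in BXD97 through 14.2 to 14.8 in BXD61 on chow, and from 14.2 in BXD63 through 14.4 to 14.7 in BXD61 on high fat. Its rise was 0.23 ± 0.04 units (SE, limma, adjusted p = 2.54e-06), with 32 of 39 strains higher. BXD61 was the highest strain on chow for Hp and Steap4. Without BXD44 and BXD61 the differences of Lcn2, Steap4 and Hp were 1.92, 0.63 and 0.26 units, and those of Saa2, Saa1, Orm2 and Orm3 were 1.31, 1.03, 0.93 and 1.14.

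The diet difference did not run the same way in every strain. In 31 of 39 strains at most 2 of the 10 genes were lower on high fat, and in 26 at most 1. BXD44, BXD70 and C57BL/6J had 9 of 10 lower, and BXD89 had 7. BXD62 and BXD63 had 5 lower, BXD61 had 4 and BXD95 had 3. In BXD70 the differences of Saa1, Saa2, Saa3, Orm2 and Lcn2 were -3.43, -2.95, -2.41, -2.23 and -2.19 units. In BXD89 those of Saa1 and Saa2 were -2.71 and -3.46, while Orm3 was 1.37 higher. BXD62 had -1.88 for Saa1 and -1.87 for Saa2, while its Lcn2 was 0.20 higher. These fell from high chow values: Saa2 on chow was 14.5 in BXD70, 14.1 in C57BL/6J, 12.99 in BXD89 and 12.9 in BXD44, against a chow median of 9.35. The chow value is part of each difference, so picking strains by a fall favours high chow values. The other diet responses did not run backwards in most of these strains. Cyp2b9 was 6.43 units higher on high fat in C57BL/6J, 6.22 in BXD62, 4.31 in BXD89 and 1.60 in BXD70. Cidea and Cd36 were higher on high fat in those 4 strains too. Each strain has 1 pool per diet, so the direction within a strain was not tested.

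**Figure D2:**
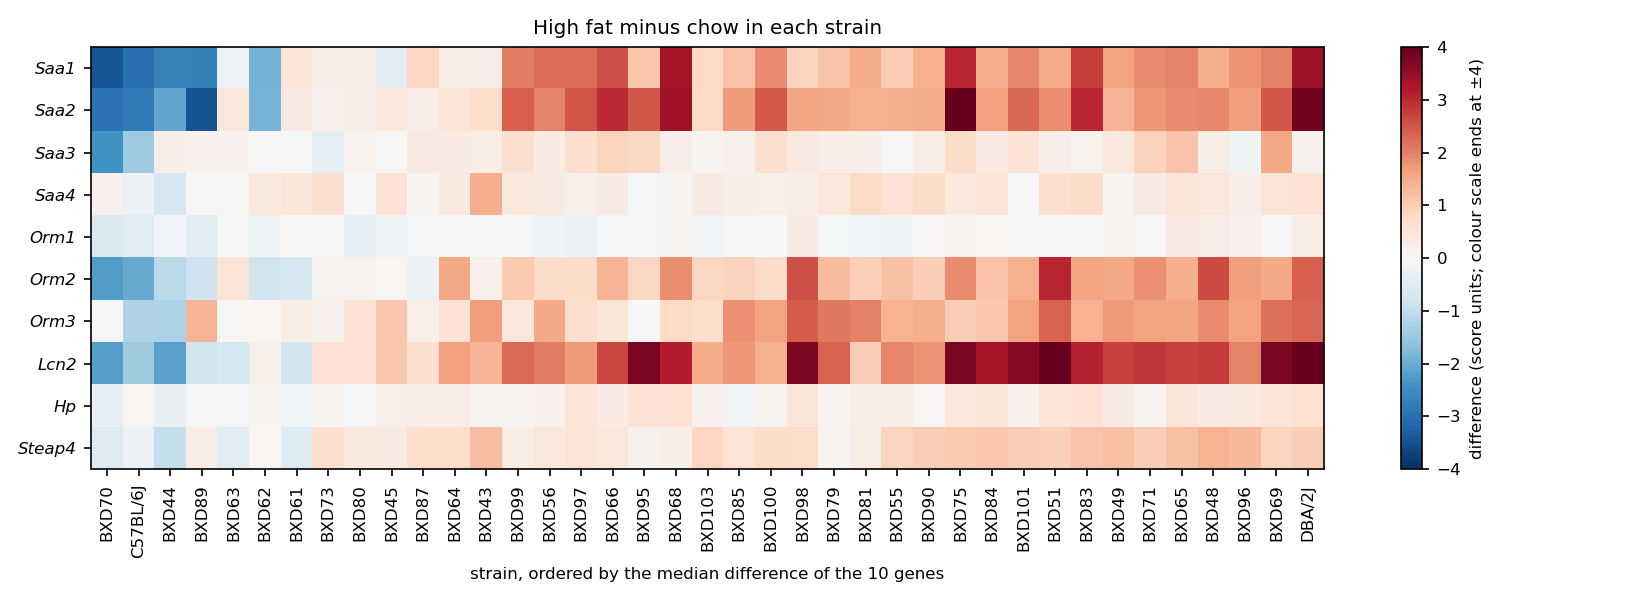
High fat minus chow, in score units (colour, blue lower and red higher), for each of the 10 genes (rows) in each of 39 strains (columns, ordered by the median of the 10). The columns at the left, from BXD70 to BXD61, hold most of the blue cells, and DBA/2J is at the right end.

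The parents of the family differed in the direction of their diet difference. Saa2 was 14.1 on chow and 11.3 on high fat in C57BL/6J, and 8.53 and 12.4 in DBA/2J. Lcn2 was 13.8 and 12.3 in C57BL/6J and 8.52 and 12.6 in DBA/2J. On chow C57BL/6J was therefore above DBA/2J by 5.56 units for Saa2 and 5.24 for Lcn2, and on high fat it was below by -1.12 and -0.23. Saa1 went from 12.4 to 9.37 in C57BL/6J and from 7.29 to 10.7 in DBA/2J. Orm2 went from 13.9 to 11.9 and from 9.72 to 12.1, and Orm3 from 10.4 to 9.20 and from 8.06 to 10.4. In these 5 genes the order of the parents was reversed on high fat, though for Orm2 and Lcn2 only by -0.20 and -0.23 units. It was also reversed, from smaller gaps on chow, in Saa4, Orm1, Hp and Steap4, and not in Saa3.

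Over the whole table, 5 of 21765 genes, or 0.023%, were at least 1 unit lower on high fat in C57BL/6J and at least 1 unit higher in DBA/2J, and 5 of these 5 were Saa1, Saa2, Orm2, Orm3 and Lcn2. In the opposite sense there was 1 gene. Steps of 1 unit were rare in each parent alone. In C57BL/6J 44 genes fell by at least 1 unit, 6 of them members, and in DBA/2J 39 rose, 5 of them members. The 5 crossing genes were read on the same arrays and varied together across strains, so they are not 5 separate observations. Lower in C57BL/6J and higher in DBA/2J, at any size, were 9 of the 10 members and 17.6% of all genes. Hp was higher on high fat in both parents, by 0.09 and 0.62 units. On chow C57BL/6J ranked between 1 and 6 of 41 arrays, from the highest, for each of the 10 genes. DBA/2J ranked between 32 and 37 for Saa2, Orm2, Orm3, Lcn2 and Hp, and 24, 21, 20, 14 and 7 for Saa1, Orm1, Saa3, Steap4 and Saa4. The DBA/2J chow array is 1 of the 2 arrays with acinar transcripts, and their part in the result was not tested. With 1 pair of arrays per parent, the crossing has no replicate check. The comparison of parents over both diets (C57BL/6J minus DBA/2J, limma) called 0 of the 10 genes, against 2.39% of all genes. At an unadjusted p under 0.05 it had 3 of 10, Saa3, Orm2 and Lcn2, each higher in C57BL/6J, by 1.11, 2.01 and 2.51 units. Without the DBA/2J chow and BXD63 high-fat arrays the differences of Orm2 and Lcn2 were 1.21 and 1.36 units, with adjusted p of 0.758 and 0.82.

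**Figure D3:**
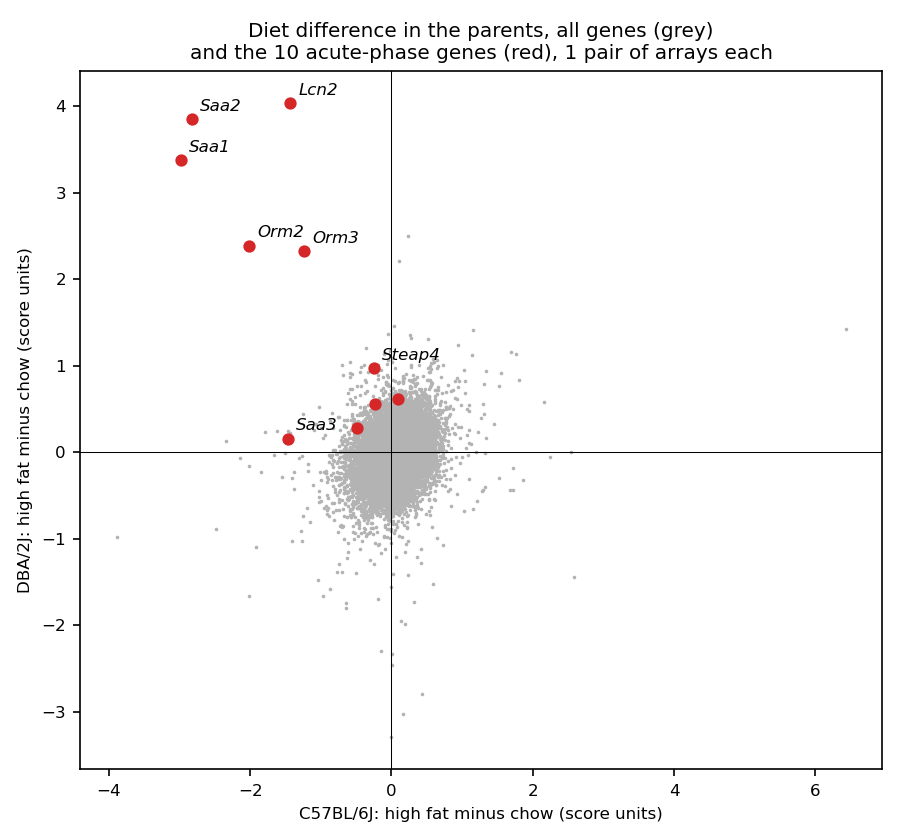
High fat minus chow in C57BL/6J (x axis) against DBA/2J (y axis), in score units, for 21765 genes (grey) and the 10 acute-phase genes (red). Saa1, Saa2, Orm2, Orm3 and Lcn2 lie alone in the upper left, lower on high fat in C57BL/6J and higher in DBA/2J by at least 1 unit each.

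The strain test, which asks whether the chow and high-fat arrays of a strain lie together, called 4 of the 10 genes, against 22.3% of all genes (limma, moderated F). Orm3 had the clearest strain differences (F = 4.49, adjusted p = 4.27e-05). Strain accounted for 58.6% of its variance beyond diet, against a median of 19.6% over all genes. Across the 39 strains, Orm3 on chow and on high fat correlated with r = 0.59 (rho = 0.57), and with r = 0.63 without the 2 strains farthest from the chow median. BXD87, BXD48 and BXD90 were lowest on chow, at 6.82, 6.82 and 7.01, and BXD87 and BXD63 were lowest on high fat, at 7.03 and 8.11. The Orm3 call was kept under all 51 alternatives, with an adjusted p between 3.43e-06 and 0.000593.

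Saa3 was called as well (F = 3.50, adjusted p = 0.000707), but 1 strain decided it. Without BXD61 the adjusted p was 0.201, and r between the diets, 0.53 with all 39 strains, was 0.33 without BXD61 and BXD70. Orm2 (adjusted p = 0.0179) was also lost without BXD61 (0.0671), with array weights (0.0609) and with trended, robust variances (0.0573). Orm1 (adjusted p = 0.0439) was lost on leaving out any 1 of 11 strains, with values up to 0.0778, without BXD44 and BXD61 (0.0546), and without BXD73, BXD80 and BXD97 (0.0566). Saa1, Saa2, Saa4, Hp, Lcn2 and Steap4 were not called, with adjusted p between 0.0625 for Lcn2 and 0.279 for Hp. Saa1 and Saa2 correlated between diets with r = 0.19 and 0.18, near the median of 0.20 over all genes. Lcn2 was called without BXD44 (adjusted p = 0.0336), without BXD89 (0.0488) and without DBA/2J and BXD63 (0.0431), and Steap4 without BXD44 (0.0448). Without BXD44, BXD61, BXD63 and DBA/2J together, Saa3 (0.219) and Orm2 (0.058) were lost and Lcn2 (0.0488) and Steap4 (0.0457) were called.

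**Figure D4:**
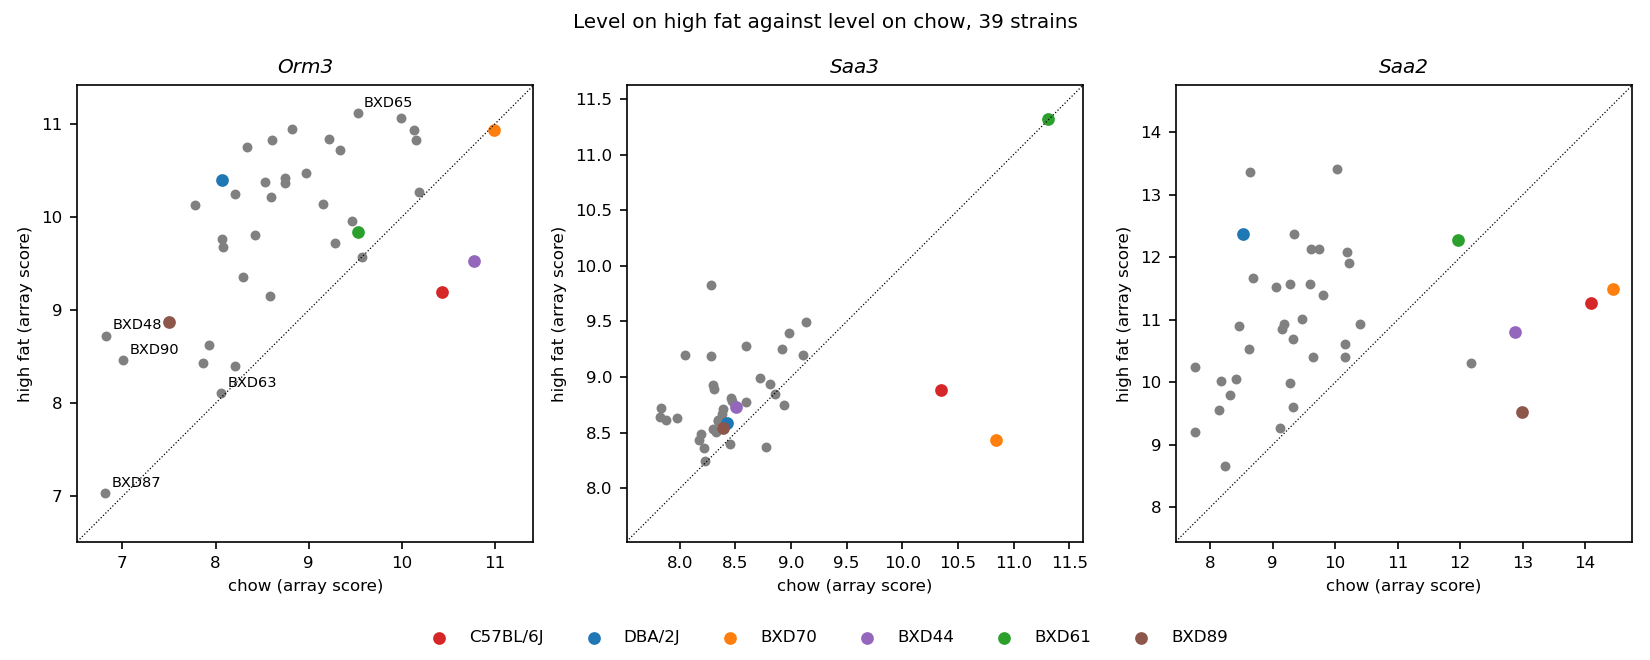
Array score on high fat (y axis) against chow (x axis) for Orm3, Saa3 and Saa2, 1 point per strain (39), with the dotted line at equal values. For Orm3, BXD87 is lowest on both diets, Saa3 has BXD61 alone at the upper right at 11.3 on both diets, and Saa2 has C57BL/6J and BXD70 high on chow only.

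The 10 genes had a larger SD between strains on chow than on high fat, as did 64.8% of all genes. For Saa1 the SD was 1.56 on chow and 1.02 on high fat, for Lcn2 1.63 and 1.09, and for Hp 0.23 and 0.13. The test of spread on paired absolute deviations (limma) called 0 of the 10, against 0.00919% of all genes. At an unadjusted p under 0.05 it had 1 of 10, Hp (p = 0.00391, adjusted p = 0.792), and 1148 genes in all.

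Within a diet the genes varied together across strains, on arrays that share their RNA pool and scaling. Over the 45 pairs of the 10, the median r was 0.622 on chow (n = 41) and 0.469 on high fat (n = 40). Without the 2 strains farthest from the median of the first-listed gene of each pair, it was 0.437 and 0.441. Extremes of the other gene stayed in. The median rho was 0.465 and 0.446. The higher chow value thus rests on few strains. Saa1 and Saa2 had r = 0.962 on chow and 0.945 on high fat, and Orm2 and Lcn2 had 0.965 and 0.799. Saa4 and Saa3 were at the other end, with r = 0.149 and 0.011. Orm3 followed Orm2 with r = 0.62 and 0.456, less closely than Lcn2 did, a difference that was not tested.

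**Figure D5:**
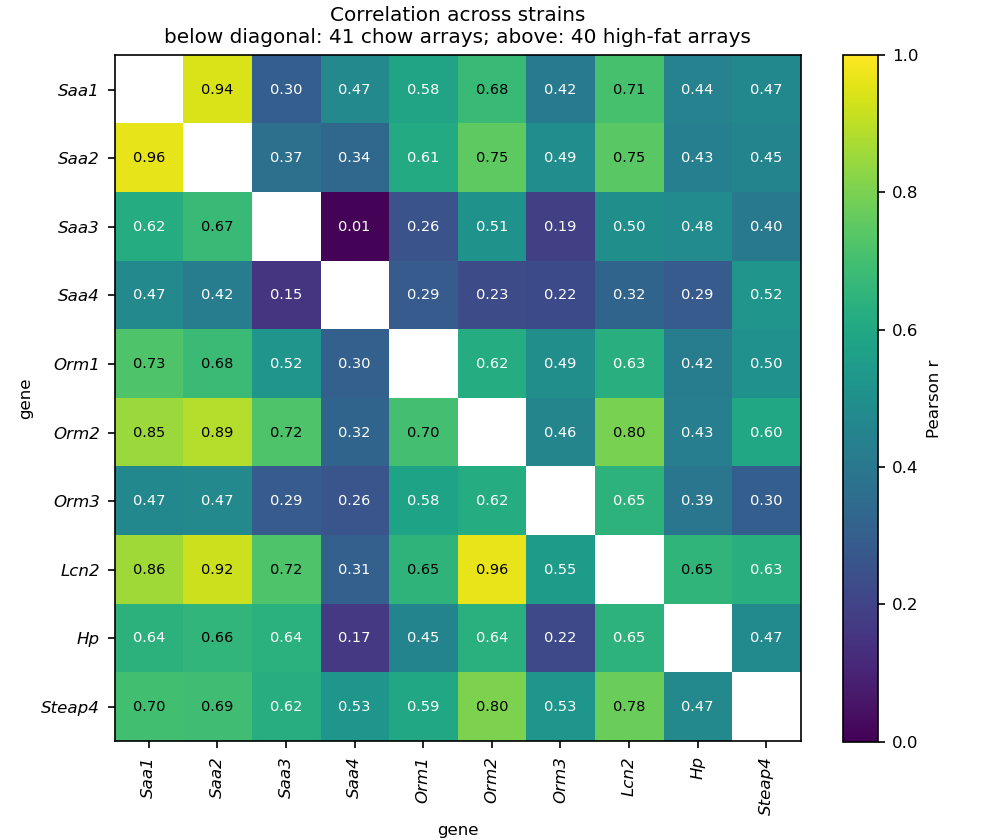
Pearson r across strains between each pair of the 10 genes (both axes), below the diagonal on 41 chow arrays and above it on 40 high-fat arrays. Saa1 with Saa2 and Orm2 with Lcn2 are the brightest on chow, at 0.962 and 0.965, and Saa3 with Saa4 is the darkest, at 0.149 and 0.011.

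For each of the 10, the 3 other genes whose levels ran most like it across strains were taken by the mean of r on both diets. Lrg1, a secreted leucine-rich acute-phase glycoprotein, was nearest to Saa1 (r = 0.76 on chow, 0.47 on high fat), Saa2 (0.78, 0.43) and Lcn2 (0.78, 0.69). Hpx, which binds haem in plasma, was nearest to Hp (0.83, 0.77). Tmem176b and Tmem176a, membrane proteins of the same family, were nearest to Orm2 (r = 0.74 and 0.62 for Tmem176b) and to Steap4 (0.76 and 0.75). Saa3 ran with Casp4, an inflammatory caspase (0.74, 0.78), Cybb, the phagocyte oxidase subunit (0.77, 0.74), and Irak3 (0.79, 0.64). BXD61, the highest strain for Saa3, is among these arrays, and rho was lower, at 0.33 and 0.57 for Casp4, 0.65 and 0.52 for Cybb and 0.45 and 0.32 for Irak3. Orm3 ran with Smpd3, a neutral sphingomyelinase (0.55, 0.71), Cpne8 and Ly6d. Saa4 ran with Il1r1, the interleukin 1 receptor (0.63, 0.55), Chrm3 and the bile acid transporter Slc10a2, and Orm1 with the plasma carboxypeptidase Cpb2 (0.67, 0.45). For Saa1 the others were Fgl1 (0.64, 0.50), a fibrinogen-like protein secreted by hepatocytes, and Tifa, and for Saa2 they were Smpd3 and Isyna1. Among the 10 genes nearest to the mean of all members were Shisa5, Tgm2, Rhbdf2 and Slc13a3, with r between 0.55 and 0.71.

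Some of these also differed by diet. Smpd3 rose by 0.67 ± 0.07 units (SE, limma, adjusted p = 7.87e-11, 37 of 39 strains higher), Fgl1 by 0.71 ± 0.10 (2.35e-07) and Lrg1 by 0.41 ± 0.09 (0.00011). Hpx rose by 0.11 ± 0.03 units (0.00178). Isyna1 fell by 0.14 units (adjusted p = 0.015). Tifa, Irak3 and Rhbdf2 did not pass, with adjusted p of 0.642, 0.813 and 0.446.

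Of 25 other positive acute-phase genes measured, 8 were higher on high fat, 4 lower and 13 were not called, with a median of 0.04 units. The shares over all genes, 27.7% higher and 26.1% lower, are the background to this and to the list counts that follow, and 8 of 25 is near it. Beside Lrg1, Itih4, an inter-alpha-trypsin inhibitor chain, rose by 0.14 ± 0.03 units (SE, limma, adjusted p = 3.58e-05). The fibrinogen chain Fgg fell by 0.10 units (0.000288), and Hamp, the iron hormone hepcidin, fell by 0.88 (4.11e-05, 34 of 39 strains lower). Hamp differences ran from -6.20 in BXD97 to 2.28 in BXD44. Of 20 negative acute-phase genes, 4 were higher, 5 lower and 11 were not called, with a median of 0. Igf1, the liver growth factor, rose by 0.16 ± 0.02 units (1.12e-07), Serpina6, the corticosteroid carrier, by 0.31 ± 0.05 (4.52e-06) and Apoa4 by 0.43 ± 0.10 (0.000395). Itih1 and Itih2 fell by 0.15 and 0.12 units.

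Upstream of these genes, 22 of 24 cytokine ligands and receptors were measured, of which 5 were higher, 5 lower and 12 were not called, both below the 27.7% and 26.1% of all genes. Tnf fell from 7.76 ± 0.40 to 7.22 ± 0.23 (SD, n = 39), by 0.54 units (SE 0.07, limma, adjusted p = 3.99e-09), lower in 36 of 39 strains. Its high-fat mean was low on the scale, above the negative-control median of 6.69 but below the lowest array median of 7.66. Il11 fell by 0.45 units (5.76e-13, 39 of 39 strains), to a level near the negative-control median. The receptor Tnfrsf1a rose by 0.25 ± 0.04 units (6.66e-08), Ly96, the partner of the endotoxin receptor, by 0.36 ± 0.07 (3.78e-05), and the decoy receptor Il1r2 by 0.26 ± 0.04 (3.19e-07), close to the negative-control median on both diets. Of 33 signal transducers, factors and feedback genes, 11 were higher, 5 lower and 17 were not called, against the same 27.7% and 26.1%. Stat3, the factor that carries the Il6 signal, rose by 0.19 ± 0.03 units (4.76e-06, 33 of 39 strains higher), Relb of the NF-kB family by 0.32 ± 0.04 (6.14e-10) and Stat5a by 0.14 ± 0.03 (1.67e-05). The feedback gene Socs2 fell by 0.50 units (0.000229), and Fkbp5, a target of glucocorticoids, by 0.34 (0.000526).

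Cells other than hepatocytes can hold some of these transcripts, Lcn2 in neutrophils and Saa3 in macrophages. Of 20 measured neutrophil markers, 3 were higher on high fat, 2 lower and 15 were not called, fewer each way than the 27.7% and 26.1% of all genes. Their mean score lay between 6.57 and 7.14 on chow and between 6.61 and 7.45 on high fat, and 11 of 20 were on average below the negative-control median. Ltf, a granule protein, rose by 0.20 ± 0.06 units (SE, limma, adjusted p = 0.00328) from 6.21 ± 0.12 (SD), below that median, and the receptor Fpr1 rose by 0.26 ± 0.08 (0.00647). Chi3l1 fell by 0.25 units (0.00914) and the chemokine receptor Il8rb by 0.13 (0.00968), the latter also below that median. Across chow arrays the mean of this list correlated with the 10 genes with r between -0.04 and 0.63, and across high-fat arrays between -0.19 and 0.37. On chow rho was mostly lower, 0.02 against r = 0.46 for Saa1, 0.04 against 0.45 for Saa2 and 0.13 against 0.49 for Lcn2, while for Hp it was 0.56 against 0.63. Of 24 macrophage and Kupffer cell markers, 14 were higher, 3 lower and 7 were not called, against 27.7% and 26.1% of all genes, with a median of 0.17 units and 0.004 over all genes. Their mean score lay between 8.57 and 10.1 on chow and between 8.73 and 9.59 on high fat, and 1 of 24 was on average below the negative-control median. Mmp12 rose by 0.56 ± 0.10 units (8.53e-06), and Cd5l and Clec4f of Kupffer cells by 0.36 ± 0.05 (1.22e-07) and 0.24 ± 0.05 (3.07e-05). The mean of the macrophage list correlated with the 10 genes with r between -0.06 and 0.67 on chow and between -0.13 and 0.59 on high fat (rho between -0.15 and 0.59 and between -0.05 and 0.58), and its part in the diet differences was not tested. Of 16 hepatocyte markers, 6 were lower and 10 were not called, against the same shares, the 6 including Cyp3a11, by -0.83 units (1.08e-09). With the mean of this list the 10 genes had r between -0.49 and -0.01 on chow, though rho for Hp was 0.19. On high fat r lay between -0.37 and 0.10. The part of this in the diet differences was not tested.

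Of 12 adipocyte markers, 3 were higher and 4 lower, near the 27.7% and 26.1% of all genes. Fabp4, a fatty acid carrier also present in macrophages, rose by 0.62 ± 0.06 units (SE, limma, adjusted p = 3.83e-11) and Cfd by 0.34 ± 0.08 (0.000578). Plin1 and Pck1 fell by 0.25 and 0.34 units (6.69e-07 and 2.17e-06). Of 22 measured acinar markers, 4 were higher and 4 lower, below those shares, with Rnase1 and Try5 lower by -0.46 and -0.41 units and Reg1 and Prss2 higher by 0.34 and 0.32. The mean of the acinar list correlated with the 10 genes with r between -0.25 and 0.11 on chow and between -0.35 and -0.01 on high fat.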

How the data were processed

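Liver RNA pools of 81 strain and diet cohorts were measured on Affymetrix whole-transcript arrays, 1 array per pool. Per the submitters' processing notes, Affymetrix Expression Console was used; its version is not given in the sources used here, nor is the way probes were summarised and scaled. As deposited, the values are scores that average 8 with an SD of 2 in each array's column. They run like logarithms of no stated base, so differences are in score units and no fold is given. The tests planned for microarray log values were run on these scores. The number of arrays limits the precision.

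Of 35556 probe sets, those with 1 gene symbol were kept, 1 per gene by the highest mean, which left 21765 genes. Tests used limma 3.58.1 in R 4.3.3 (lmFit, eBayes) on the 78 paired arrays, with Benjamini-Hochberg adjustment over all genes and a threshold of 0.05. The diet test had strain as a block, and the strain and parental tests had diet as a covariate. The spread test compared, within strains, how far the arrays lay from the median of their diet. BXD50, BXD60 and BXD92a entered only levels, correlations and the fit on all arrays without a block. Pairs follow from the strain names: deviations of a strain's 2 arrays from the diet means correlated with a median of 0.338 over all genes, above 0.1 in 37 of 39 strains. The tests were tested on simulated data. Some strains had like profiles over the 4857 genes called for strain, with r = 0.603 for BXD80 and BXD103 and 0.513 for BXD65 and BXD97. The tests counted them as separate strains. Each strain and diet is 1 pool. The p-values of the diet, strain and parental tests therefore rest on how the diet difference varies from strain to strain, technical spread included. In the spread test, the change in distance from the median takes the place of the diet difference.

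The members, the lists and the strains left out in alternatives were chosen with earlier results of these data known. Named genes are the members. From each other list they are up to 4 with the smallest diet p and those past the threshold by 0.3 units. For each member they are the 3 genes of highest mean within-diet r, and the 10 nearest the members' mean. Cyp2b9, Cidea, Cd36 and Hamp were added as diet responses. Of the genes these rules name, the text gives most. Alternatives covered scaling, probe set choice, dim genes, weights, variance model, pairing and strains left out. Promoter sequences are from RefSeq (GRCm38.p6). Gene symbols are those of the deposited annotation.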

Additional observations from a re-analysis of the deposited data

Results flagged for a closer look

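For 5 of the 10 genes high fat was lower than chow by at least 1 unit in C57BL/6J and higher by at least 1 unit in DBA/2J. High fat minus chow in DBA/2J exceeded that in C57BL/6J by 6.67 units for Saa2, 6.37 for Saa1, 5.47 for Lcn2, 4.41 for Orm2 and 3.56 for Orm3. Each parent has 1 array per diet, so the difference between the parents was not tested. The DBA/2J chow array also carried acinar transcripts, with Cpa1 at 10.4 against a median of 7.47 on the other 79 arrays. The part of this in the crossing was not tested.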

How the results depend on the processing

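Without the pairing of arrays by strain (no replicate block), the diet test called 8 of the 10 genes on all arrays and 8 on the paired arrays, against 9 with it; Saa3 was lost, and the block changed no other call among the 10. Leaving out 1 strain at a time gave 8 to 9 genes for diet, 2 to 6 for strain and 0 for spread. The strain count was 2 without BXD61 and 1 without BXD44 and BXD61, where Orm3 stayed; without BXD44, BXD61, BXD63 and DBA/2J, chosen after seeing the data, it was 4 but with Lcn2 and Steap4 in place of Saa3 and Orm2. The other alternatives, among them that without BXD73, BXD80 and BXD97, whose profiles resemble those of other strains, gave 9 genes for diet, 3 to 5 for strain, and 0 for the parents and for spread, and no called difference changed sign. Over all genes, the diet test called 7280 without the dimmest genes, where fewer genes are tested, against 11693, and the parental test 297 without the DBA/2J chow and BXD63 high-fat arrays, against 520, with the lone DBA/2J array assumed to vary like the others; the spread test called between 0 and 3, against 2. Counting only diet differences of at least 0.3 units left 7 of the 10 genes. Saa1, near the negative-control median on some arrays, is the member that dimness limits most.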
